A study of Mus musculus with 4 samples.

Results

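Proteoglycans are core proteins that carry long sulfated sugar chains, and 10 of their genes are described here, chosen by symbol from the 16051 genes of the deposited table. They are the small leucine-rich proteoglycans Dcn, Bgn, Lum, Fmod and Ogn, the large matrix proteoglycans Vcan and Hspg2, and the cell surface proteoglycans Sdc1, Sdc4 and Gpc1. All 10 were listed, and 8 of them reached a mean of 1 FPKM (fragments per kilobase of transcript, scaled to the mapped reads) and were among the 10243 genes tested. Fmod and Lum were below that limit.

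The small leucine-rich proteins bind collagen fibrils and growth factors of the TGF-beta family. Versican (Vcan) binds hyaluronan and swells the loose matrix around migrating cells, and perlecan (Hspg2) is a heparan sulfate proteoglycan of basement membranes, which also surround fat cells. Syndecans span the plasma membrane and glypicans are anchored in its outer leaflet by a lipid, and with their heparan sulfate chains both act as co-receptors for growth factors and other ligands.

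The cells were 3T3-L1, a line of NIH SWISS mouse embryo fibroblasts that is used as a model of adipocytes. They were taken through a hormone cocktail for differentiation and then given DMSO, the vehicle, or 100 μM risperidone, an atypical antipsychotic, for 48 h. The labels name the DMSO cells as untreated and mention retina in the extraction, whereas the methods name DMSO and the cell line only. Each treatment was sequenced as 2 libraries of 15883712 to 16374119 estimated counts, and RNA of 3 cultures was pooled for each library. The p-values therefore measure the spread between pools, and in these bulk samples fewer cells of a kind and less RNA per cell cannot be told apart.

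The adipocyte markers were mixed, some being abundant and some nearly missing. Adipoq, which encodes adiponectin, had 1 and 0 counts with DMSO and 1 and 1 with risperidone, and Cebpa and Cidec had at most 5 counts in any library. Lpl, at 191 to 250 FPKM, Fabp4, at 59.5 to 169 FPKM, and Pparg, at 11.4 to 12.8 FPKM, were well detected. Of the 16 adipocyte markers 8 were tested, of which Pnpla2, named with its value known, was higher and Lipe, Fabp4, Plin4 and Lpl were lower after risperidone. With limma on log2(TPM + 1) 0 were higher and 4 lower, so the call for Pnpla2 was lost. Of 11 tested fibroblast markers 4 were higher and 3 lower, where edgeR called 32.1% of all genes tested higher and 32.2% lower. With limma on log2(TPM + 1) 4 were higher and 7 lower, where that fit called 15% of all genes higher and 51.7% lower. Dlk1, Thy1 and the collagen gene Col1a1 rose (log2 fold change 1.52, 1.05 and 0.99), and the collagen gene Col3a1 fell (-0.96). Risperidone replicate 2 held kidney transcripts, with a sum over 20 kidney markers of 246.2 FPKM against 4.59 to 6.93 FPKM in the other libraries. Of the 7 kidney markers tested, Umod, Slc34a1, Miox, Pck1 and Napsa reached a mean of 1 FPKM through that library alone. Their calls as higher are therefore no separate result. The log2 fold changes of Kap and Ass1, 5.74 and 2.57, were 0.69 and 0.81 without that library. Other values without it are given where they bear on a result. A fit with 1 library left out has 1 library on that side and takes its spread from the other treatment. It assumes that the lone library varies alike, so its p-values are weaker evidence than those of the full fit. By a chi-square test against counting error, 12.4% of genes passed its 5% value between the DMSO libraries and 23.5% between the risperidone libraries. A fit without a risperidone library thus borrows the smaller spread. Retina markers summed to 0.89 to 1.28 FPKM, and of 9 macrophage and endothelial markers in the table only Cd68 was tested (log2 fold change 1.19). Without risperidone replicate 2 the log2 fold changes were -1.10 for Vcan, -0.44 for Sdc4, -0.48 for Gpc1, 0.56 for Sdc1 and 0.19 for Bgn, and the part of the other marker changes was not tested.

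After risperidone, Vcan, Gpc1 and Sdc4 fell and Sdc1 and Bgn rose, whereas Hspg2, Ogn and Dcn did not pass the threshold. By edgeR's quasi-likelihood F-test, with p-values adjusted over all genes tested after Benjamini and Hochberg, 2 of the 8 tested members passed 0.05 with a rise and 3 with a fall. Over all genes tested 64.3% passed this threshold, 32.1% of them being higher and 32.2% lower as shares of the genes tested, so the members were called about as often as any gene. Their median log2 fold change was 0.03, against 0.0004 for all genes. None of the 8 reached an absolute log2 fold change of 1, which 6.52% of all genes tested did while also passing 0.05. Of the genes called by edgeR 49.9% were higher with TMM (trimmed mean of M-values) scaling and 37.9% with library size alone. Of those called by limma 37.8% were higher on log2(FPKM + 1) and 22.5% on log2(TPM + 1), where TPM are transcript shares that sum to the same total in each library. The median of all genes was -0.22 in that last fit, and every value given below as with TPM comes from it.

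Biglycan (Bgn, gene 12111, chrX:73483601-73495936 in RefSeq GRCm38.p6, as for all genes below) was by far the most abundant member, and its rise was small. It stood at 2248 and 2216 FPKM in the DMSO libraries and at 2371 and 2405 FPKM in the risperidone libraries. In FPKM the treatments did not overlap, but in TPM they did, at 4656 and 4549 with DMSO and 4342 and 4578 with risperidone. The share of all genes tested without overlap was not counted, so non-overlap here and below describes values only. Bgn had the 14th highest mean FPKM of the genes tested. It made up 88.1% and 88.3% of the summed FPKM of the 10 members with DMSO and 90.6% and 90.2% with risperidone. The log2 fold change was 0.19 (standard error 0.0461, edgeR's Benjamini-Hochberg adjusted p = 0.00346). The call was lost with library size alone (0.10, edgeR's adjusted p = 0.0692), with limma on log2(FPKM + 1) (0.10, limma's adjusted p = 0.218) and without DMSO replicate 2 (0.18, edgeR's adjusted p = 0.0681). With TPM the log2 fold change was -0.05, or 0.18 relative to the median of all genes.

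Decorin (Dcn, gene 13179, chr10:97479500-97518163), the closest relative of biglycan, was scarce by comparison. Its counts were 63 and 54 with DMSO and 75 and 68 with risperidone, which the authors give as 2.21, 1.94, 2.63 and 2.43 FPKM. Both risperidone values lay above both DMSO values, but the log2 fold change of 0.38 had a 95% interval of -0.05 to 0.82 and edgeR's Benjamini-Hochberg adjusted p was 0.111. Within a library, Bgn exceeded Dcn 1017 and 1142 times with DMSO and 902 and 990 times with risperidone.

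Osteoglycin (Ogn, gene 18295, chr13:49608015-49624501), also called mimecan, was the second most abundant small leucine-rich member. Its level was 72.1 and 66.4 FPKM with DMSO and 59.1 and 62.9 FPKM with risperidone, with no overlap between the treatments. The counts, scaled by TMM, gave a log2 fold change of -0.09 with a 95% interval of -0.21 to 0.03, and edgeR's Benjamini-Hochberg adjusted p was 0.185. With the same edgeR test scaled by library size alone the log2 fold change was -0.18 (edgeR's adjusted p = 0.0153), so the call for Ogn depended on the scaling between libraries. With TMM its estimate was -0.02 without DMSO replicate 1, -0.05 without risperidone replicate 1 and -0.15 without DMSO replicate 2, and in none of these did it pass 0.05. The ratio of Bgn to Ogn within a library, which needs no such scaling, was 31.2 and 33.4 with DMSO and 40.1 and 38.2 with risperidone. With 2 libraries against 2, an exact permutation test of a ratio cannot give a p below 0.333, so ratios are given as values only.

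Fibromodulin (Fmod, gene 14264, chr1:134037254-134048280) and lumican (Lum, gene 17022, chr10:97565501-97572703) guide the thickness of collagen fibrils, and both were at or near 0. Fmod had 8 and 7 counts with DMSO and 15 and 19 with risperidone. The treatments did not overlap, and in a test of 16021 genes with no filter on low values its log2 fold change was 1.26 (standard error 0.447, edgeR's Benjamini-Hochberg adjusted p = 0.0825). Lum had 1 count in DMSO replicate 1 and 0 in the other 3 libraries. That is under the floor of 3 counts which a library at 0 still permits by counting error alone (0.183 to 0.189 CPM, which are counts scaled to the library total), so no fold change is given.

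**Figure D1:**
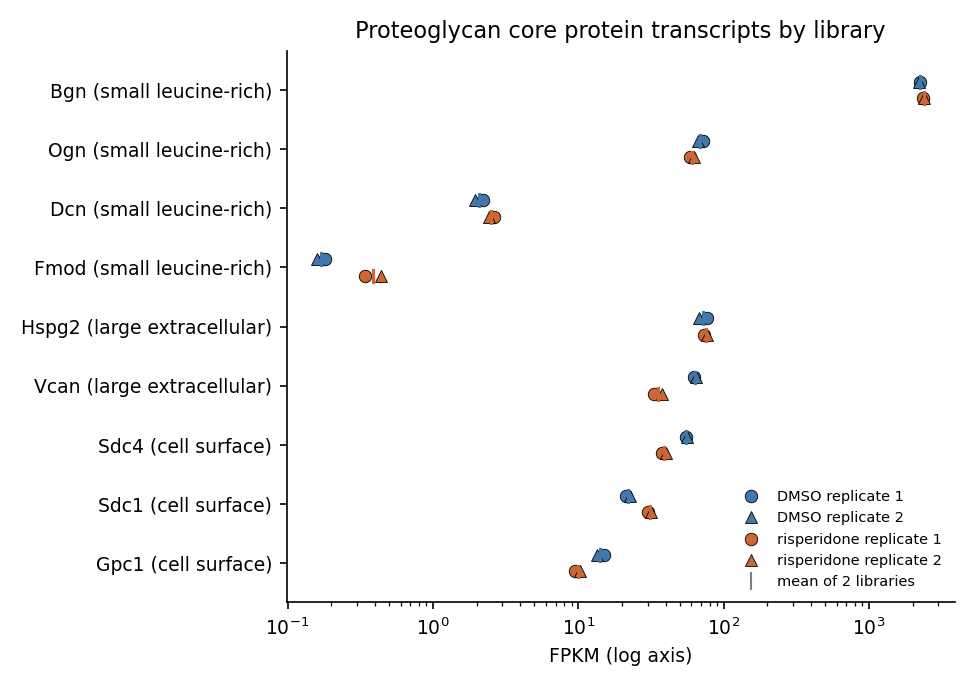
Level of 9 of the 10 proteoglycan genes in each of the 4 libraries, in FPKM on a log axis, with circles and triangles for replicates 1 and 2, blue for DMSO, orange for risperidone and ticks for the mean of 2 libraries. Bgn sits at 2216 to 2405 FPKM, Fmod at 0.16 to 0.44 FPKM, and Lum, at 0 in 3 libraries, is left out.

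The small leucine-rich genes lie in clusters, and in the RefSeq annotation of mouse build GRCm38.p6 genes well expressed here lie beside genes scarcely detected. On chromosome 13, Ecm2, Aspn, Omd and Ogn span 119.7 kb. Ecm2 and Omd had at most 7 counts in a library, whereas Aspn, which encodes asporin, a collagen-binding relative of decorin, had 638, 513, 74 and 122 counts in the order DMSO replicates 1 and 2 and risperidone replicates 1 and 2. The log2 fold change of Aspn was -2.46 (standard error 0.170), and -2.87 without risperidone replicate 2. On chromosome 10, Dcn and Lum are 47.3 kb apart, and Kera and Epyc beyond them had no row in the table. On chromosome 1, Fmod lies 107.2 kb from Prelp, a heparin-binding leucine-rich protein, which stood at 13.3 and 13.5 FPKM with DMSO and 19.8 and 20.8 FPKM with risperidone. Prelp rose with a log2 fold change of 0.70, and neighbouring genes of a cluster thus differed in level by far more than the spread between libraries. Ogn lies inside Cenpp on the other strand in the GENCODE M21 annotation. The sources do not say whether reads were counted by strand, and whether exons of Ogn and Cenpp share bases was not examined.

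Vcan (gene 13003, chr13:89655309-89743027, minus strand) had the largest change of the tested members and fell to 0.514 of its level with DMSO. Its estimated counts were 9428 and 9216 with DMSO and 4078 and 4907 with risperidone. Both risperidone libraries lay far below both DMSO libraries, and the log2 fold change was -0.96 (standard error 0.0751, edgeR's Benjamini-Hochberg adjusted p = 1.33e-06). Among all genes tested, 4.47% had a lower log2 fold change. The estimate stayed between -1.10 and -0.83 on the log2 scale when single libraries were left out, and -1.10 came without risperidone replicate 2.

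On the FPKM scale the fall of Vcan was smaller, from 62.3 and 64.7 to 33.2 and 37.6 FPKM. The log2 ratio of the mean FPKM was -0.84, against -1.05 for the mean CPM. The gap lies in the transcript length by which the counts were divided, which can be read back from count, FPKM and library total. For Vcan this implied length was 9239 and 8973 bases with DMSO and 7559 and 8166 bases with risperidone, a mean change of -13.7%. For the other 7 tested members the change was at most 0.309% in size. Of 7661 genes that reached 5 FPKM in both treatments, 37 had a lower ratio of implied lengths than Vcan, and the 1st percentile of their log2 ratios was -0.15 against -0.21 for Vcan. This measure was chosen after the values were seen and was not tested.

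Versican is made in several forms that differ in exons for the chondroitin sulfate attachment domains. In GENCODE M21 (GRCm38) these are exon 7 of transcript Vcan-203, chr13:89702918-89705797 on the minus strand with 2880 bases, and exon 8, chr13:89688285-89693501 with 5217 bases. Transcript Vcan-203 holds both exons and has 12427 bases, Vcan-206 holds exon 8 alone and has 8332, Vcan-202 holds exon 7 alone and has 5702, and Vcan-201 holds neither and has 2321. The implied lengths of all 4 libraries lay between those of Vcan-202 and Vcan-203. Those with DMSO lay above the length of Vcan-206 and those with risperidone below it. The annotation behind the implied lengths is not known, so they cannot be matched to single transcripts. Values per transcript were not analysed here. The antisense gene Gm4117 overlaps Vcan, and whether their exons share bases was not examined.

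**Figure D2:**
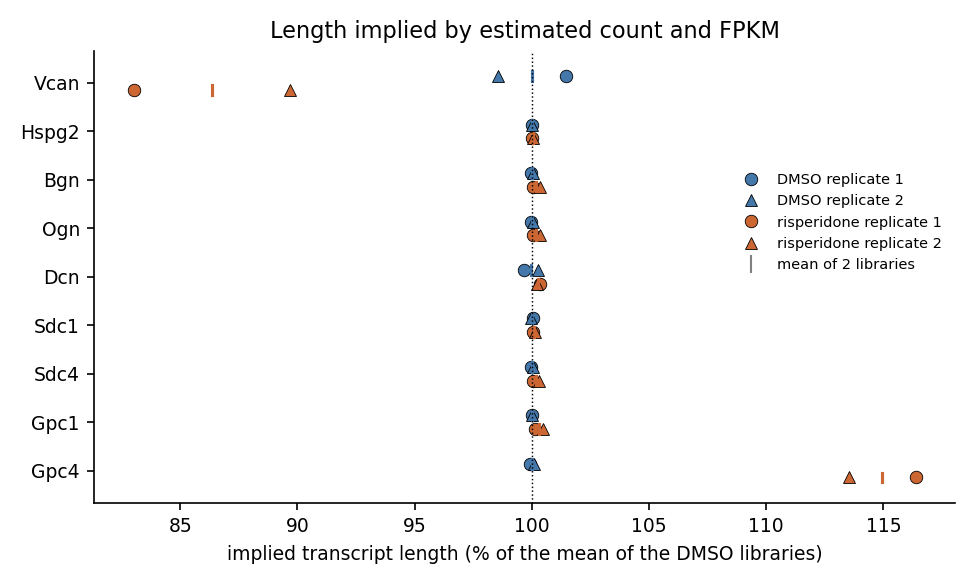
Transcript length implied by estimated count, FPKM and library total, as a percentage of the mean of the DMSO libraries, for the 8 tested members and Gpc4, with circles and triangles for replicates 1 and 2 and ticks for means. Vcan sits below 100% in both risperidone libraries and Gpc4 above it, while the other 7 genes stay near 100%.

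Perlecan (Hspg2, gene 15530, chr4:137468751-137570630) did not pass the threshold. It was at 77.2 and 67.6 FPKM with DMSO and at 73.1 and 77.3 FPKM with risperidone, with values that overlapped between the treatments. Its log2 fold change was 0.15 with an unadjusted 95% interval of 0.01 to 0.29, and edgeR's Benjamini-Hochberg adjusted p was 0.0648. Without DMSO replicate 1 the log2 fold change was 0.25, without risperidone replicate 1 it was 0.18 and without DMSO replicate 2 it was 0.05. At an implied length of 14075 to 14083 bases Hspg2 was the longest member, and offsets that remove the trend with transcript length raised its log2 fold change to 0.37 (edgeR's adjusted p = 1.78e-05). It also passed 0.05 with DESeq2 (DESeq2's adjusted p = 0.0429). With TPM it was -0.09, or 0.14 relative to the median of all genes. The ratio of Vcan to Hspg2 within a library was 0.807 and 0.957 with DMSO and 0.453 and 0.487 with risperidone, with no overlap.

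Ranked by mean FPKM, the members ran from Bgn through Hspg2, Ogn, Vcan, Sdc4, Sdc1 and Gpc1 to Dcn, Fmod and Lum, in the same order by TPM. With DMSO, Hspg2 and Ogn overlapped between libraries and did not differ beyond their spread, whereas both Vcan values lay above both Sdc4 values. With risperidone Sdc4, at 38.9 ± 1.39 FPKM (SD, n = 2 libraries), stood above Vcan, at 35.4 ± 3.15 FPKM. Both Sdc4 values lay above both Vcan values, but the means differed by only about the spread between the Vcan libraries.

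The 2 syndecans among the members moved in opposite directions. Sdc1 (gene 20969, chr12:8771396-8793716), the syndecan best known from epithelial and plasma cells, rose from 21.2 and 22.6 FPKM with DMSO to 30.1 and 31.9 FPKM with risperidone. Sdc4 (gene 20971, chr2:164424247-164443188, minus strand), a widely expressed syndecan of focal adhesions, fell from 54.7 and 56.2 to 37.9 and 39.9 FPKM. Neither gene overlapped between the treatments. The log2 fold changes were 0.60 (standard error 0.0617, edgeR's Benjamini-Hochberg adjusted p = 1.03e-05) for Sdc1 and -0.41 (standard error 0.0490, edgeR's Benjamini-Hochberg adjusted p = 2.74e-05) for Sdc4. Within a library, Sdc4 exceeded Sdc1 2.58 and 2.49 times with DMSO and 1.26 and 1.25 times with risperidone. Both calls held in all 14 alternatives, with log2 fold changes from 0.35 to 0.64 for Sdc1 and from -0.65 to -0.38 for Sdc4, and the extremes on the low side came with TPM.

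The other two syndecans are given beside them from a list of further core proteins. Sdc3 rose from 7.87 and 7.20 to 13.8 and 15.4 FPKM (log2 fold change 1.04), and Sdc2 fell from 68.0 and 66.7 to 46.2 and 46.2 FPKM (log2 fold change -0.45). Sdc1 made up 14.0% and 14.8% of the summed syndecan FPKM with DMSO and 23.5% and 23.9% with risperidone, and Sdc4 36.1% and 36.8% with DMSO and 29.6% and 29.9% with risperidone. Summed over the 4 syndecans, the level was 152 ± 0.651 FPKM (SD, n = 2) in the DMSO libraries and 131 ± 3.82 FPKM (SD, n = 2) after risperidone. The FPKM of all genes summed to 482767 and 487207 with DMSO and 546060 and 525448 with risperidone. FPKM levels of the treatments are therefore not on one scale, here and above.

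The bases upstream of Sdc1 and Sdc4 are shown because these genes of one family moved apart. They are RefSeq sequences of GRCm38.p6, cut where the first GENCODE M21 exon of the gene begins, at chr12:8771146-8771322 on the plus strand for Sdc1 and chr2:164443189-164443438 on the minus strand for Sdc4. Capitals mark matches on either strand to GGGCGG (the GC box) and CCAAT.
Sdc1: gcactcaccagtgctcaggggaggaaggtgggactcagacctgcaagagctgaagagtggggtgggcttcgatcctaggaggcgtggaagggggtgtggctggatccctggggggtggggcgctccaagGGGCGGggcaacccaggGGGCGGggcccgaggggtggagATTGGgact
Sdc4: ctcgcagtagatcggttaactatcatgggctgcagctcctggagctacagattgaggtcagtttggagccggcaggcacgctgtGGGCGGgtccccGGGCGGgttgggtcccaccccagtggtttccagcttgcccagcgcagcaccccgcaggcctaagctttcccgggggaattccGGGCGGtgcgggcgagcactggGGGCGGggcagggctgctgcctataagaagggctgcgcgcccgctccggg

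The Sdc1 stretch of 177 bases held 2 GC boxes and 1 CCAAT box, and the Sdc4 stretch of 250 bases held 4 GC boxes and no CCAAT box. RefSeq windows of 300 bases around the start were given for 7 of the 10 members. In them the GC box was found for Bgn, Hspg2, Sdc1, Sdc4 and Vcan, against 35.7% of 32851 windows of all genes, and CCAAT for Fmod, Sdc1 and Vcan, against 37.4%. The TATA box TATAAA was found for Ogn, where 13.6% of all windows held it. No match was found in the 7 windows for TGANTCA (AP-1), CACGTG (E-box) or TTCNNNGAA (STAT), which 7.81%, 7.15% and 8.30% of all windows held. Members that rose and members that fell shared the GC box, and these matches are letters in a window and no evidence of binding.

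Gpc1 (gene 14733, chr1:92831645-92860211), a widely expressed glypican, was lower after risperidone, as was Sdc4. It was at 15.1 and 13.4 FPKM with DMSO and 9.51 and 10.3 FPKM with risperidone, with no overlap. Its log2 fold change was -0.42 (standard error 0.0720, edgeR's Benjamini-Hochberg adjusted p = 0.000377), and between -0.51 and -0.33 with any 1 library left out. Gpc4, the most abundant glypican, rose from 35.2 and 34.3 to 49.0 and 47.4 FPKM (log2 fold change 0.77), and the share of Gpc1 in the summed FPKM of the 4 listed glypicans was 26.4% and 24.6% with DMSO and 14.6% and 15.7% with risperidone. The implied length of Gpc4 also changed, from a mean of 2473 to 2843 bases, and its log2 ratio was 0.67 by CPM and 0.47 by mean FPKM. Gpc1 overlaps Ankmy1 and the antisense gene Gm29481 on the other strand, and whether their exons share bases with Gpc1 was not examined.

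**Figure D3:**
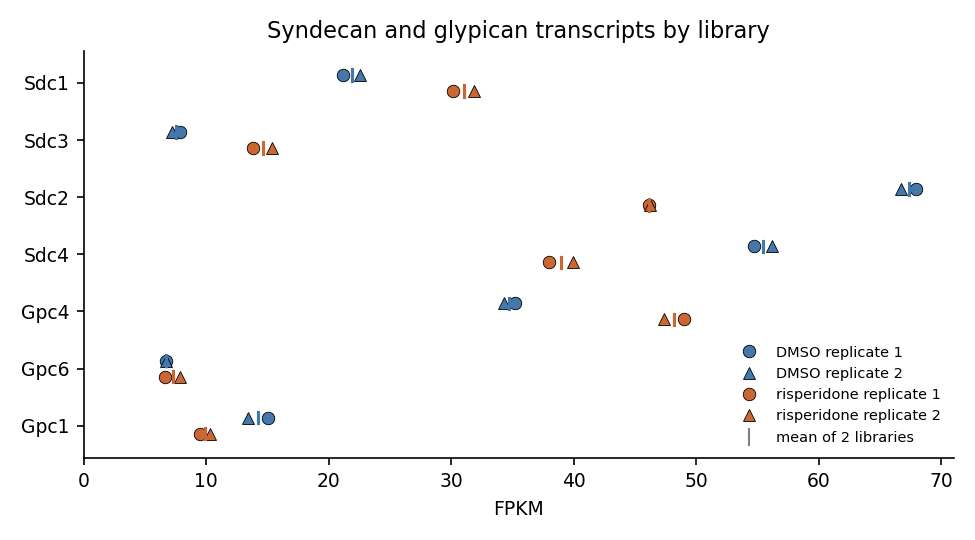
Level of the 4 syndecans and of 3 glypicans in each library, in FPKM from 0, with circles and triangles for replicates 1 and 2, blue for DMSO, orange for risperidone and ticks for means. Sdc1, Sdc3 and Gpc4 lie further right with risperidone, and Sdc2, Sdc4 and Gpc1 further left.

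**Figure D4:**
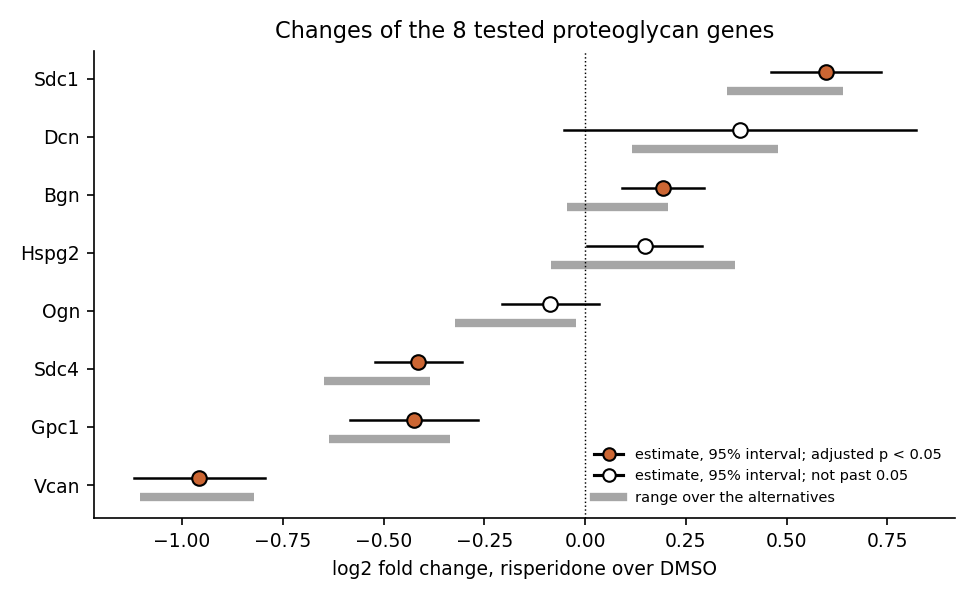
Log2 fold change of risperidone over DMSO for the 8 tested members, with circles for edgeR's estimate, thin lines for its unadjusted 95% interval, orange fill where the adjusted p passed 0.05 and grey bars for the range over 14 alternatives (13 for Dcn). The ranges of Bgn and Hspg2 cross 0 with TPM, and those of the other 6 genes do not.

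Of the further core proteins on the list, 11 of 27 in the table were tested, with 7 higher, 2 lower and a median log2 fold change of 0.21, where 32.1% of all genes tested were higher. With TPM 3 were higher, where that fit called 15% of all genes higher, and the median was -0.03. Among those with a mean of at least 5 FPKM the largest changes were those of Aspn, Sdc3, Gpc4 and Prelp, given above.

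The chains of the members are built by shared enzymes. Called lower were 5 of 9 tested genes for heparan sulfate, 6 of 10 for chondroitin and dermatan sulfate and 7 of 16 for the linker and precursors, where 32.2% of all genes tested were lower. With TPM, where 51.7% of all genes were lower, these counts were 6, 8 and 12, with medians of -0.49, -0.42 and -0.39. Of all genes tested 32.1% were higher, and 15% with TPM. The counts higher with TPM were 0, 0 and 3 in these lists. For heparan sulfate, the chain of Hspg2, Sdc1, Sdc4 and Gpc1, 1 tested gene was higher and the median log2 fold change was -0.26. Ndst1, which starts sulfation of the chain, fell from 27.6 and 27.4 to 15.1 and 17.5 FPKM (log2 fold change -0.61). The epimerase gene Glce (-0.42), the 2-O-sulfotransferase gene Hs2st1 (-0.41) and the chain initiation gene Extl3 (-0.41) fell with it. For chondroitin and dermatan sulfate, the chains of Bgn, Dcn and Vcan, 2 were higher and the median was -0.23. Dse, the dermatan sulfate epimerase (log2 fold change -0.41), and Chpf, of the chain polymerase (-0.29), fell, Csgalnact2 (-0.27), which starts or extends chondroitin chains, fell too, and Chst12, a 4-O-sulfotransferase (0.29), rose. With TPM Chst12 was 0.05 (limma's adjusted p = 0.504).

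Of the genes for the linker and the precursors of the chains, 4 were higher and the median was -0.16. Over all genes tested 32.1% were higher. With TPM 3 of the list were higher, where 15% of all genes were. Slc35b2 (log2 fold change -0.55) and Slc35b3 (-0.41), which carry the sulfate donor into the Golgi, fell, whereas the linker enzymes B4galt7 (0.54) and B3gat3 (0.43) rose. Without DMSO replicate 2 Slc35b3 was -0.40 (edgeR's adjusted p = 0.0603). The largest rise was that of Papss2, which makes the sulfate donor, at 0.900, 0.840, 1.34 and 2.42 FPKM, with a log2 fold change of 1.22 that was 0.74 without risperidone replicate 2. The largest fall was that of Slc35d1, which carries UDP-sugar precursors, at 3.12, 3.63, 1.67 and 1.87 FPKM, with a log2 fold change of -0.86 (edgeR's Benjamini-Hochberg adjusted p = 0.000208). Both genes were picked with their values known.

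Among partners and modifiers of the members, Sulf2 and Has3 stood out, both chosen after their values were seen. Sulf2, an extracellular enzyme that removes 6-O-sulfate from heparan sulfate, rose from 1.68 and 1.78 to 5.39 and 5.01 FPKM (log2 fold change 1.70, edgeR's Benjamini-Hochberg adjusted p = 8.38e-07). Has3, which makes hyaluronan, the ligand of versican, had 73 and 75 counts with DMSO and 20 and 25 with risperidone, and was below the limit for testing. Without a filter on low values its log2 fold change was -1.62 (edgeR's Benjamini-Hochberg adjusted p = 0.00308). Hapln4, of the family of link proteins, was the only tested gene of 12 in that list and fell (-0.37).

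Of 6 tested genes for cleavage of core proteins and for extracellular sulfatases, 3 were higher and 2 lower, where 32.1% of all genes tested were higher and 32.2% lower. The median was 0.14, or -0.09 with TPM, and 1 gene was lower in place of 2 with DESeq2, with each limma fit and in several other settings, while Pcolce kept its call. Adamts1, a protease that cleaves versican, rose from 23.9 and 19.6 to 27.6 and 32.1 FPKM (log2 fold change 0.55). Bmp1, which trims the propeptide of biglycan, was higher by 0.22 on the log2 scale, a direction that turned to -0.03 with TPM. Pcolce, the procollagen C-endopeptidase enhancer gene, fell (-0.30). Of 14 tested genes for the breakdown of the chains in lysosomes, 10 were higher and 3 lower, with a median of 0.21, where 32.1% of all genes tested were higher. With TPM 5 were higher, against 15% of all genes, and the median was -0.02. Without DMSO replicate 1 the number higher was 6, against 26.0% of all genes. Naglu (0.80) and Galns (0.59) rose and Gusb (-0.84) and Sgsh (-0.55) fell, all of them coding for enzymes that act in turn on the chains. These lists were described by counts and medians and no list was tested against the other genes.

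**Figure D5:**
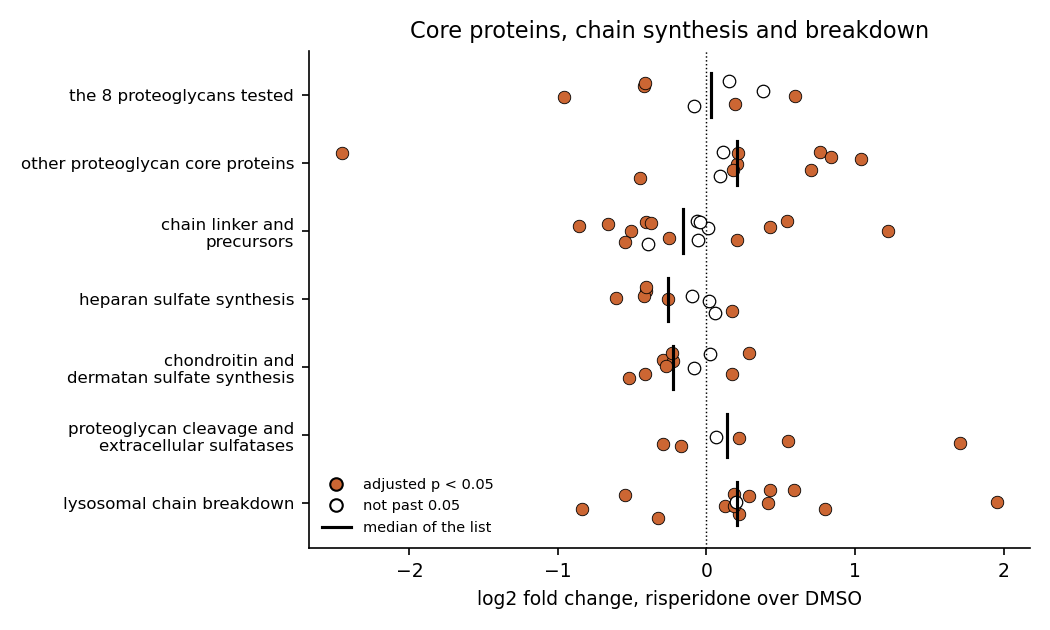
Log2 fold change of risperidone over DMSO for each tested gene of 7 lists, with 1 circle a gene, orange where edgeR's adjusted p passed 0.05, and a line at the median of the list. The heparan sulfate and chondroitin sulfate lists have medians of -0.26 and -0.23, and the lysosomal list of 0.21.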

How the data were processed

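mRNA of 4 libraries of 3T3-L1 cells, 2 with DMSO and 2 with risperidone, was sequenced on an MGISEQ-2000. The authors deposited estimated counts (expected counts, not normalized), FPKM and TPM per gene, and FPKM was calculated on the DC.TOM platform after cleaning and mapping. The submitters' processing notes name Bowtie2, RSEM, DESeq2 and GRCm38.p6, with no versions or order, and the annotation and strand setting are not given in the sources used here. The authors also deposited averages per treatment, which were not used. Deposited counts were rounded and tested with edgeR 4.0.16 in R 4.3.3 (TMM, quasi-likelihood F-test, two-sided, Benjamini-Hochberg adjustment) where the mean over the 4 libraries reached 1 FPKM, with treatment as the only term. Standard errors were derived from the estimate and F. Alternatives used DESeq2 1.42.0, limma 3.58.1 on log2(FPKM + 1), log2(FPKM + 0.1) and log2(TPM + 1), other scalings, filters, a replicate block and libraries left out in turn. Implied length is the count divided by library total and by FPKM, in bases. Scripts were tested on simulated data. The members and the 12 gene lists were chosen with earlier results of these data known. From each list, up to 4 genes with the largest absolute log2 fold change, an adjusted p under 0.05 and a mean of at least 5 FPKM were named, besides the members and genes said to be chosen later. Tables and figures used Python 3.11.15, pandas 2.3.3 and matplotlib 3.10.9.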

Additional observations from a re-analysis of the deposited data

How the results depend on the processing

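Vcan, Sdc4, Gpc1 and Sdc1 kept their direction and passed 0.05 in all 14 alternatives run for them, of which 4 leave out a library, take the spread from the other treatment alone and assume that the lone library varies alike. Limma on log2(TPM + 1) called 1536 genes higher and 5292 lower, and it turned Bgn to -0.04576, Hspg2 to -0.08556 and Bmp1 to -0.02643 on the log2 scale. Bgn missed 0.05 with library size only (0.1006) and with limma on log2(FPKM + 1) (0.09756) or log2(FPKM + 0.1) (0.09759), and lay between 0.1819 and 0.2061 with single libraries left out. In these 3 settings Ogn passed it, at -0.1798, -0.1792 and -0.1817, as it did with TPM (-0.3228). Hspg2 passed it with DESeq2 (0.1499) and with offsets for transcript length (0.3716), and lay between 0.05281 and 0.2504 with libraries left out. A minimum absolute log2 fold change of 1 left 267 genes higher and 401 lower, with 0 members higher and 0 lower.

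The number of members called higher was 1 with library size only and with each limma fit. Of all genes tested 24.4% were higher with library size only and 33.1% with a 5 FPKM minimum, against 32.1% in the main fit. With limma on log2(FPKM + 1), log2(FPKM + 0.1) and log2(TPM + 1) the shares were 23.6%, 23.7% and 15%. The counts below are to be read beside these shares. Of the further core proteins, 4 were higher with library size only, with a 5 FPKM minimum and with either limma fit on FPKM, and 3 with TPM. Of the linker and precursor genes, 4 were lower with the 5 FPKM minimum, under which fewer genes were tested, and 12 with TPM. For heparan sulfate synthesis, 0 were higher with library size only and with each limma fit, and 0 to 1 with libraries left out (0 without DMSO replicate 2). For chondroitin sulfate synthesis, 1 was higher with DESeq2 and with library size only, 0 with TPM, and 1 to 2 with libraries left out (2 only without risperidone replicate 1). With no filter, 2 hyaluronan genes were lower. Of the cleavage genes, 1 was lower with DESeq2, RLE size factors, length offsets, no filter, the 5 FPKM minimum, the replicate block and each limma fit, and 1 to 2 with libraries left out (1 without DMSO replicate 1 or risperidone replicate 1). Of the lysosomal genes, 6 were higher with library size only and either limma fit on FPKM, 5 with TPM, and 6 to 10 with libraries left out, with 6 without DMSO replicate 1. Where no construction of the setting shows it, the cause was not tested.

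The replicate numbers were not taken as pairs, since no label ties them and the deviations of the replicate 1 libraries from their group means had r = -0.105 across 10243 genes. A replicate block gave 3292 genes higher and 3321 lower, and brought Hspg2 past 0.05 (0.1511, edgeR's adjusted p = 0.0454). With 2 pooled libraries a treatment, changes of scarce members such as Dcn and Fmod were estimated with wide error.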
